A study of Homo sapiens with 36 samples.

Results

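Cells make cholesterol and fatty acids from acetyl-CoA, and 36 genes of that synthesis were followed here in BxPC-3 cells treated with 5 compounds. The genes were chosen by name from the known pathways: enzymes from acetyl-CoA to cholesterol, 3 genes of sterol transport, enzymes of fatty acid synthesis and modification, and 2 genes of lipid use. They are 36 of the 29744 genes in the deposited table, and all 36 were among the 14988 genes that passed the count filter and were tested. This list was made with earlier results of these data known. Counts of called members beside the shares of all genes therefore describe the list and are not an independent test of it. BxPC-3 is an established human pancreatic adenocarcinoma line, labelled as wild type, and was grown in 6-well plates with serum. Cells received 3 µM of TRAP1, TRAP-1-NegP, JQ1, TRAP-1-NegB or MS78, or the solvent DMSO, and were harvested after 2 or 4 h for sequencing of polyadenylated RNA. TRAP1 names a compound here (also written TRAP-1 in the labels), not the gene of that symbol. The series title calls the other compounds controls, and the labels do not say what the suffixes NegP and NegB stand for. JQ1 blocks the bromodomains of BET proteins, which read acetylated histones at active genes. Each of the 12 groups of compound and time held 3 libraries, 36 in all, from 1 cell line. Nothing in the labels tells if the 3 numbered libraries of a group came from separate cultures, so p-values measure only the spread between these libraries, which may be technical.

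As background, acetyl-CoA units are joined to HMG-CoA and reduced to mevalonate, which is turned into isoprenoid building blocks, joined to squalene, closed into the sterol ring and trimmed to cholesterol. The SREBP transcription factors wait in the endoplasmic reticulum with their escort SCAP. When sterols there are scarce, the INSIG proteins let the complex move to the Golgi apparatus, where the factor is cut free. SREBP-2 favours the genes of cholesterol synthesis and uptake, and SREBP-1 those of fatty acid synthesis, while the LXR receptors answer to oxidised sterols. Cultured carcinoma cells draw on both their own synthesis and the lipoproteins of serum.

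Total estimated counts ran from 15288688 to 26608325 per library. Levels below are CPM, that is counts scaled to a common library size, with totals corrected by TMM, which sets the bulk of genes equal between libraries, and changes are log2 fold changes ± SE from edgeR's quasi-likelihood test. A gene is said to have risen or fallen where its Benjamini-Hochberg adjusted p over all 14988 genes was under 0.05. All 10 epithelial marker genes were at or above 1 TPM, with summed levels of 13970.0 to 19863 TPM. The 7 mesenchymal markers summed to 2.55 to 6.26 TPM, with 5 under 1 TPM in every library. The 7 blood and endothelial markers summed to 23.2 to 34.3 TPM, of which CD68, a lysosomal gene, gave 17.5 to 27.6 TPM, and the leukocyte marker PTPRC reached 0.0419 TPM at most. In bulk RNA, fewer cells and less RNA per cell cannot be told apart. Within their groups, 2 libraries were treated below as standing apart from their partners. In TRAP1 replicate 1 of 4 h 1287 of the tested genes had no count, where replicates 2 and 3 had 929 and 503. MS78 replicate 1 of 2 h lay apart in many members. By mean correlation with the rest of their group, TRAP1 replicates 1, 2 and 3 of 4 h were the lowest of all libraries, at 0.9551, 0.9595 and 0.9627. TRAP-1-NegP replicate 2 of 4 h and MS78 replicate 1 of 2 h followed, at 0.9659 and 0.9666. The TMM factors were 0.837 to 0.862 in TRAP1 libraries at 4 h, 0.897 to 0.918 with TRAP-1-NegP and 0.934 to 0.938 with JQ1, against 1.01 to 1.03 in DMSO libraries. Scaled by library totals alone, the median of all genes against DMSO at 4 h moved by −0.27 with TRAP1, −0.17 with TRAP-1-NegP, −0.13 with JQ1, −0.033 with TRAP-1-NegB and 0.070 with MS78. At 2 h it moved by −0.12, −0.14 and −0.083 with TRAP1, TRAP-1-NegP and JQ1. Of all genes called at 4 h, 22.1% were higher with TRAP1 on totals alone, against 47.5% with TMM; with TRAP-1-NegP these were 25.2% and 49.6%, with JQ1 37.0% and 49.7%, with TRAP-1-NegB 59.9% and 80.5%, and with MS78 63.5% and 40.8%. At 2 h the shares were 30.1% and 52.4% with TRAP1, 29.8% and 54.2% with TRAP-1-NegP, and 35% and 51.6% with JQ1. Every change below is relative to the TMM scale.

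After 4 h, genes of the sterol branch rose with every compound. FASN, ACSS2 and ACLY, which build fatty acids, rose with TRAP1, TRAP-1-NegP and JQ1 and were not called with TRAP-1-NegB or MS78. With TRAP1 at 4 h, 27 of the 36 rose and 3 fell, beside 22.2% and 24.5% of all genes tested. On library totals alone 16 rose and 6 fell. With 1 library left out 23 to 26 rose, and without TRAP1 replicate 1 or DMSO replicate 1 the falls numbered 1. The members' median change was 0.47, against −0.022 over all genes. With TRAP-1-NegP at 4 h, 24 of the 36 rose and 2 fell, beside 18.6% and 18.9% of all genes tested, with a median change of 0.69 against −0.015. With JQ1 at 4 h, 20 of the 36 rose and 5 fell, beside 24.3% and 24.6% of all genes tested, with medians of 0.36 and −0.012; the falls numbered 3 without JQ1 replicate 1. With TRAP-1-NegB at 4 h, 9 of the 36 rose and 0 fell, beside 0.827% and 0.2% of all genes tested, with medians of 0.21 and −0.0033. Those 9 were HMGCS1, IDI1, FDFT1, SQLE, CYP51A1, MSMO1, DHCR7, NPC1 and SCD. With MS78 at 4 h, 21 of the 36 rose and 1 fell, beside 6.23% and 9.05% of all genes tested, with medians of 0.43 and −0.0021. These comparisons share their 3 DMSO libraries at each time, so their values stand side by side and are not independent of each other.

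At 2 h fewer members had moved. With TRAP1, 14 of the 36 rose and 0 fell, beside 15.7% and 14.3% of all genes tested; on library totals alone 8 rose and 1 fell. With TRAP-1-NegP, 14 of the 36 rose and 0 fell, beside 16.4% and 13.9% of all genes tested (13 and 5 on totals alone). With JQ1, 14 of the 36 rose and 0 fell, beside 14.8% and 13.9% of all genes tested (8 and 1 on totals alone). With TRAP-1-NegB, 6 of the 36 rose and 0 fell, beside 5.08% and 5.87% of all genes tested; this count was 3 without DMSO replicate 3. With MS78, 7 of the 36 rose and 2 fell, beside 8.3% and 7.65% of all genes tested, and the total of 9 calls was 1 when only MS78 and DMSO libraries of 2 h were fitted. The falls, of STARD4 and ELOVL5, numbered 0 without MS78 replicate 1 or DMSO replicate 2, and 1 without DMSO replicate 1.

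**Figure D1:**
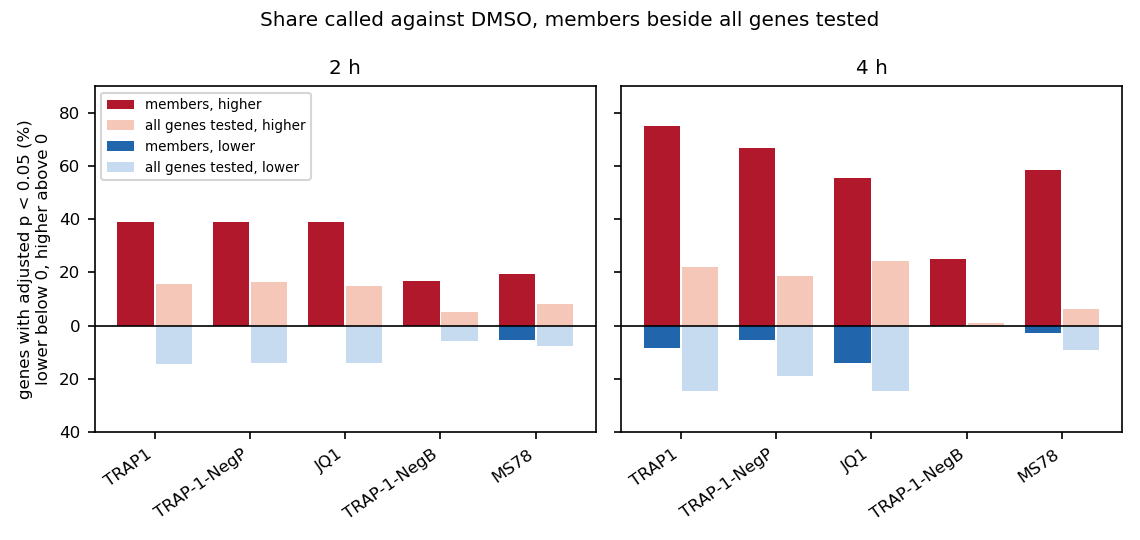
Share of genes called higher (bars above 0) or lower (bars below 0) against DMSO at 2 h and 4 h, in percent, for the 36 members (dark) beside all 14988 genes tested (pale). At 4 h the dark bars above 0 exceed the pale ones with all 5 compounds, with 27 of 36 members higher with TRAP1 and 9 of 36 with TRAP-1-NegB.

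**Figure D2:**
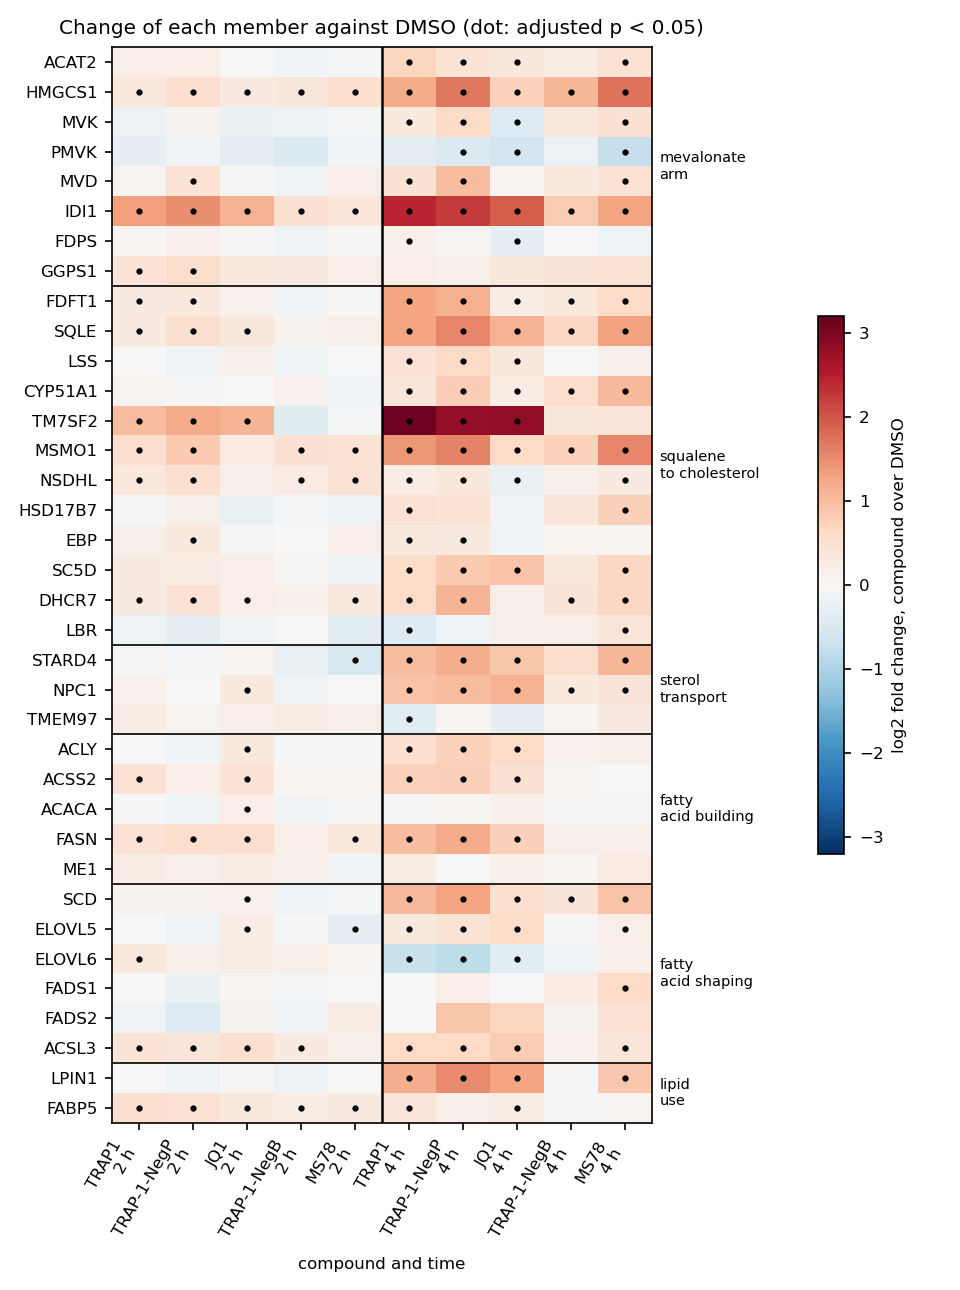
log2 change of each member (rows, grouped by role) against DMSO for each compound at 2 h and 4 h (columns), with a dot where the adjusted p was under 0.05. TM7SF2 and IDI1 hold the strongest rises in the TRAP1, TRAP-1-NegP and JQ1 columns, and ELOVL6 is lower in those columns at 4 h.

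The members with the strongest changes under TRAP1 at 4 h are shown with their promoters, because genes of this pathway are known to be read through sites for SREBP and its partners close to their starts. TM7SF2 (chr11:65111622-65111871, plus strand), IDI1 (chr10:1056705-1056954, minus strand) and MSMO1 (chr4:165327419-165327668, plus strand) rose most, and ELOVL6 (chr4:110198616-110198865, minus strand) and LBR (chr1:225428822-225429071, minus strand) fell most. Each line gives the 250 bases before a start in RefSeq, build GRCh38.p14, read 5′ to 3′ on the gene's strand. For TM7SF2, IDI1, MSMO1 and LBR that start is the outer end of the gene. The ELOVL6 gene runs over chromosome 4, 110045846 to 110199202, so its stretch lies within the gene, before a start further in. Capitals mark matches on either strand to CCAAT (the box bound by NF-Y, a partner of the SREBP factors), GGGCGG (the box of SP1), CACGTG (the E-box) or TCACNCCAC (a core of the sterol response element).
TM7SF2: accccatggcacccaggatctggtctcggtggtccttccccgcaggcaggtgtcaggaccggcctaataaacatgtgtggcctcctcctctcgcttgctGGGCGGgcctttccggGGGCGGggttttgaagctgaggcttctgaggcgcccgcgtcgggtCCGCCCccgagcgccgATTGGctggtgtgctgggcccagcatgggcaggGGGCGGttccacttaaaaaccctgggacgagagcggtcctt
IDI1: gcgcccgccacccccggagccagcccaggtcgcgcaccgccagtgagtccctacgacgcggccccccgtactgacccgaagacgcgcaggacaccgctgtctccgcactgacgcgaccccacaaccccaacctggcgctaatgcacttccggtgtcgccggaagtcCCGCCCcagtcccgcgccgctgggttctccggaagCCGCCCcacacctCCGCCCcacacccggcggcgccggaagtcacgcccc
MSMO1: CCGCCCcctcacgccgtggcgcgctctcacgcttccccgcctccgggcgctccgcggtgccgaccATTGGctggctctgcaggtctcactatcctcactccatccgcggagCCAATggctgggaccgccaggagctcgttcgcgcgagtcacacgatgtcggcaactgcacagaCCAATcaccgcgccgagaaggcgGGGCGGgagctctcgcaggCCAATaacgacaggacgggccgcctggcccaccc
ELOVL6: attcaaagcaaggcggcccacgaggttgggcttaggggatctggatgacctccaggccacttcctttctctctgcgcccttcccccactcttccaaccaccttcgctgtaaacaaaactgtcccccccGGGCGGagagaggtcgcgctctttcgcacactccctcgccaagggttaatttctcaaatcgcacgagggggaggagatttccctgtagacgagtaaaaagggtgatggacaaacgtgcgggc
LBR: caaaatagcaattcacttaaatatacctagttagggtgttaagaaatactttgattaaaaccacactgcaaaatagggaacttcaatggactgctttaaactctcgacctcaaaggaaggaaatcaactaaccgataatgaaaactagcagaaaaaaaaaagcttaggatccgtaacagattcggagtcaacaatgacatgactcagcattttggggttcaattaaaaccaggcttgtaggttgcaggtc

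The TM7SF2 stretch above holds 4 GGGCGG matches and 1 CCAAT match, the MSMO1 stretch 4 CCAAT and 2 GGGCGG matches, the IDI1 stretch 3 GGGCGG matches and the ELOVL6 stretch 1. The LBR stretch holds none of the 4 motifs. RefSeq promoters, from 250 bases before to 50 after the start, were found for 31 of the 36 members. CCAAT matched in 19 of these 31 (61.3%), against 34.6% of all 35116 promoters in the table. GGGCGG matched in 26 (83.9%), against 45% of all promoters, and CACGTG in 3 (9.68%), against 7.26%. TCACNCCAC matched in 0 of the 31, against 1.13% of all promoters; SREBP sites vary, and these letters are only a narrow form of them. The 35116 promoters were not limited to the 14988 genes tested, whereas all members passed the count filter. The shares are therefore of unlike sets, and whether a difference in share is particular to this pathway was not tested. A match is a description of letters, not evidence of binding, and no match says only that the letters are not in this window. CCAAT and GGGCGG do not overlap each other as motifs, and each was counted once per promoter.

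The mevalonate arm holds 8 members that make isoprenoid units and join them. At 4 h, 6 of the 8 rose with TRAP1, 5 rose and 1 fell with TRAP-1-NegP, 3 rose and 3 fell with JQ1, 2 rose with TRAP-1-NegB, and 5 rose and 1 fell with MS78. Beside these stand 22.2% of all genes higher with TRAP1, 18.6% higher and 18.9% lower with TRAP-1-NegP, and 24.3% higher and 24.6% lower with JQ1. With TRAP-1-NegB 0.827% of all genes were higher, and with MS78 6.23% were higher and 9.05% lower. IDI1, which interconverts the isoprenoid units IPP and DMAPP, led the arm. It stood at 188, 192 and 183 CPM with TRAP1 at 4 h, 161, 162 and 167 CPM with TRAP-1-NegP and 134, 140.4 and 126 CPM with JQ1. The TRAP-1-NegB libraries held 57.4, 62.0 and 63.2 CPM and the MS78 libraries 89.4, 80.3 and 82.1 CPM, against 37.7, 35.1 and 32.0 CPM with DMSO. Every treated library exceeded every DMSO library, and the 5 compounds did not overlap each other. The change of IDI1 was 2.43 ± 0.080 (adjusted p = 7.5e-32) with TRAP1, or 5.38-fold, 2.23 ± 0.080 (adjusted p = 6.2e-30) with TRAP-1-NegP, 1.93 ± 0.080 (adjusted p = 1.3e-27) with JQ1, 0.80 ± 0.079 (adjusted p = 8.0e-11) with TRAP-1-NegB and 1.26 ± 0.079 (adjusted p = 1.3e-18) with MS78. At 2 h IDI1 already stood at 80.8, 77.1 and 86.1 CPM with TRAP1 and 93.0, 88.3 and 92.8 CPM with TRAP-1-NegP, against 34.6, 33.9 and 29.7 CPM with DMSO, rises of 1.31 ± 0.079 (adjusted p = 8.2e-20) and 1.48 ± 0.079 (adjusted p = 9.5e-22). The rises at 2 h were 1.11 with JQ1, 0.49 with TRAP-1-NegB and 0.38 with MS78, the last being 0.38 (adjusted p = 0.13) with only MS78 and DMSO libraries of 2 h fitted. In the RefSeq annotation of GRCh38.p14 the gene runs over chromosome 10, 1039152 to 1056704; 14.8% of its exon bases lie under exons of the opposite strand (IDI2-AS1), and reads of the pair cannot be told apart, since strand was not stated.

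HMGCS1, the cytosolic HMG-CoA synthase that commits acetyl-CoA to the mevalonate pathway, followed another order of compounds. At 4 h it stood at 227, 216 and 206 CPM with MS78 and 217, 197 and 214 CPM with TRAP-1-NegP, the highest values among the treated groups. The TRAP1 libraries held 145, 163 and 139 CPM, the TRAP-1-NegB libraries 133, 139 and 136 CPM and the JQ1 libraries 113, 109.8 and 102 CPM, against 72.9, 60.8 and 61.9 CPM with DMSO. No treated library overlapped the DMSO range, and the JQ1 libraries lay below all other treated libraries. HMGCS1 rose by 1.73 ± 0.081 (adjusted p = 8.7e-24) with MS78, 1.68 ± 0.081 (adjusted p = 2.4e-24) with TRAP-1-NegP, 1.19 ± 0.080 (adjusted p = 1.3e-18) with TRAP1, 1.06 ± 0.080 (adjusted p = 4.2e-15) with TRAP-1-NegB and 0.73 ± 0.081 (adjusted p = 3.0e-11) with JQ1. At 2 h the rises were 0.33 with TRAP1, 0.53 with TRAP-1-NegP, 0.30 with JQ1, 0.37 with TRAP-1-NegB and 0.53 with MS78. The MS78 libraries of 2 h spread from 90.1 to 126 CPM, and with only MS78 and DMSO libraries of 2 h fitted the change was 0.53 (adjusted p = 0.051).

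The kinases and the decarboxylase that follow split by compound. MVK, mevalonate kinase, stood at 34.1, 40.6 and 38.5 CPM with TRAP1, 38.6, 56.4 and 44.0 CPM with TRAP-1-NegP and 22.0, 20.9 and 26.2 CPM with JQ1 at 4 h, against 31.2, 30.7 and 29.7 CPM with DMSO. The JQ1 libraries lay below the DMSO range and those of TRAP1 and TRAP-1-NegP above it. MVK rose with TRAP-1-NegP by 0.60 ± 0.13 (adjusted p = 0.00016) and with MS78 by 0.50 ± 0.13 (adjusted p = 0.0050), and it fell with JQ1 by 0.41 ± 0.13 (adjusted p = 0.0094). Without JQ1 replicate 2 the JQ1 change was −0.34 (adjusted p = 0.060). The rise with TRAP1, 0.31 ± 0.13 (adjusted p = 0.049), did not pass without DMSO replicate 3, at 0.28 (adjusted p = 0.13), nor with any of DMSO replicates 1 and 2 or TRAP1 replicates 2 and 3 left out; on library totals it was 0.037 (adjusted p = 0.84). PMVK, phosphomevalonate kinase, went the other way in several groups. It stood at 19.8, 21.2 and 16.7 CPM with TRAP1, 17.2, 16.0 and 18.2 CPM with TRAP-1-NegP, 16.7, 16.2 and 13.9 CPM with JQ1, 21.3, 21.5 and 19.4 CPM with TRAP-1-NegB and 11.2, 16.7 and 15.0 CPM with MS78 at 4 h, against 24.6, 21.0 and 25.3 CPM with DMSO. The TRAP-1-NegP, JQ1 and MS78 libraries lay below every DMSO library, and the TRAP1 and TRAP-1-NegB libraries overlapped them. PMVK changed by −0.73 ± 0.15 (adjusted p = 0.00053) with MS78, −0.60 ± 0.15 (adjusted p = 0.00085) with JQ1 and −0.47 ± 0.15 (adjusted p = 0.013) with TRAP-1-NegP. The last of these missed the threshold without DMSO replicate 3, at −0.41 (adjusted p = 0.058), and without TRAP-1-NegP replicate 2, at −0.42 (adjusted p = 0.057). The TRAP1 value was −0.30 (95% interval −0.60 to 0.0074, adjusted p = 0.10). MVD, the decarboxylase that yields IPP, averaged 80.7 ± 4.06 CPM with TRAP-1-NegP and 56.7 ± 6.61 CPM with TRAP1 at 4 h, against 40.7 ± 5.40 CPM with DMSO (SD, n = 3 each), rises of 0.99 ± 0.11 (adjusted p = 7.1e-11) and 0.48 ± 0.11 (adjusted p = 0.00023). With MS78 it rose by 0.46 ± 0.11 (adjusted p = 0.0019) and with JQ1 it stood at 0.10 (95% interval −0.12 to 0.32, adjusted p = 0.50).

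FDPS, which builds farnesyl diphosphate at the fork to sterols and prenylated proteins, was the most abundant member of the arm, at 216 ± 7.01 TPM with DMSO at 4 h. It stood at 183, 200.2 and 193 CPM with TRAP1, 187, 169.9 and 186 CPM with TRAP-1-NegP and 142, 128 and 145 CPM with JQ1, against 167, 178 and 167 CPM with DMSO. The JQ1 libraries lay below the DMSO range, at −0.31 ± 0.070 (adjusted p = 0.00021). The TRAP1 libraries lay above it, at 0.17 ± 0.069 (adjusted p = 0.038), but on library totals the TRAP1 change of FDPS was −0.10 (adjusted p = 0.19), below 0. It also missed the threshold without DMSO replicate 1 or 3, at 0.14 (adjusted p = 0.12) and 0.14 (adjusted p = 0.12), and without TRAP1 replicate 2 or 3. The annotation names 8 pseudogenes after FDPS, and reads shared with them make its counts uncertain. ACAT2, the cytosolic thiolase of the first step, rose by 0.70 ± 0.090 (adjusted p = 2.9e-09) with TRAP1, 0.45 with TRAP-1-NegP, 0.36 with JQ1 and 0.47 with MS78, and stood at 0.23 (95% interval 0.048 to 0.41, adjusted p = 0.33) with TRAP-1-NegB. Exons of the opposite strand, of TCP1 and SOD2, cover 52.3% of its exon bases, so part of its count may come from them. GGPS1, which makes geranylgeranyl diphosphate, was not called at 4 h with any of the 5 compounds, with changes of 0.17 with TRAP-1-NegP up to 0.43 with MS78; at 2 h it rose with TRAP1 by 0.43 ± 0.16 (adjusted p = 0.034) and with TRAP-1-NegP by 0.55 ± 0.16 (adjusted p = 0.0059). Those rises were 0.37 (adjusted p = 0.14) without TRAP1 replicate 1 and 0.45 (adjusted p = 0.056) without TRAP-1-NegP replicate 1.

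From squalene to cholesterol, 12 members were measured. At 4 h, 11 of them rose and 1 fell with TRAP1, 10 rose with TRAP-1-NegP, and 7 rose and 1 fell with JQ1. With TRAP-1-NegB 5 rose, and with MS78 9 rose. Of all genes, 22.2%, 18.6%, 24.3%, 0.827% and 6.23% were higher in that order of compounds. The shares lower were 24.5% with TRAP1 and 24.6% with JQ1. Median changes of the 12 members were 0.53, 0.81, 0.24, 0.35 and 0.64 in the same order of compounds. TM7SF2, a sterol C14-reductase of the endoplasmic reticulum, had the strongest response of all 36 members to TRAP1, TRAP-1-NegP and JQ1 at 4 h; at 2 h it stood after IDI1. It stood at 49.1, 59.5 and 57.3 CPM with TRAP1 at 4 h, 50.1, 37.9 and 46.0 CPM with TRAP-1-NegP and 50.6, 41.8 and 44.1 CPM with JQ1. The libraries held 8.52, 8.07 and 8.01 CPM with TRAP-1-NegB and 8.02, 6.66 and 10.4 CPM with MS78, against 4.54, 8.96 and 5.61 CPM with DMSO. The 9 libraries of the first 3 compounds all lay at or above 37.9 CPM, and the TRAP-1-NegB and MS78 libraries overlapped the DMSO range. TM7SF2 rose by 3.12 ± 0.18 (adjusted p = 1.1e-21) with TRAP1, 8.72-fold, 2.82 ± 0.18 (adjusted p = 1.4e-19) with TRAP-1-NegP and 2.84 ± 0.18 (adjusted p = 3.9e-20) with JQ1. With TRAP-1-NegB it stood at 0.37 (95% interval 0.0076 to 0.73, adjusted p = 0.49) and with MS78 at 0.40 (95% interval 0.033 to 0.76, adjusted p = 0.13). At 2 h it held 15.7, 15.7 and 14 CPM with TRAP1, 16.4, 17.6 and 17.5 CPM with TRAP-1-NegP, 19.1, 13.1 and 16.3 CPM with JQ1 and 5.87, 4.67 and 6.87 CPM with TRAP-1-NegB, against 7.08, 7.14 and 8.57 CPM with DMSO. The rises at 2 h were 0.99 ± 0.17 (adjusted p = 5.9e-06) with TRAP1, 1.18 ± 0.17 (adjusted p = 1.8e-07) with TRAP-1-NegP and 1.09 ± 0.17 (adjusted p = 9.4e-07) with JQ1.

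LBR, the lamin B receptor, carries the same C14-reductase activity in the nuclear membrane and moved otherwise. It stood at 33.6, 38.9 and 36.5 CPM with TRAP1, 44.5, 44.9 and 45.2 CPM with TRAP-1-NegP, 57.3, 54.9 and 49.5 CPM with JQ1, 56.4, 57.0 and 52.8 CPM with TRAP-1-NegB and 66.9, 62.3 and 61.7 CPM with MS78 at 4 h, against 50.6, 44.3 and 50.2 CPM with DMSO. The TRAP1 libraries lay below every DMSO library, and the MS78 and TRAP-1-NegB libraries above. LBR fell with TRAP1 by 0.41 ± 0.14 (adjusted p = 0.012) and rose with MS78 by 0.39 ± 0.13 (adjusted p = 0.041). The TRAP1 call was lost without TRAP1 replicate 1, at −0.36 (adjusted p = 0.098), without TRAP1 replicate 3, and without DMSO replicate 1 or 3; the MS78 call was lost with any of the 6 libraries left out, for example at 0.37 (adjusted p = 0.17) without DMSO replicate 2. With TRAP-1-NegB, LBR stood at 0.19 (95% interval −0.079 to 0.47, adjusted p = 0.69).

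MSMO1, the C4-methylsterol oxidase, rose with all 5 compounds at 4 h. It stood at 77.4, 60.9 and 77.8 CPM with TRAP1, 84.7, 77.9 and 84.6 CPM with TRAP-1-NegP, 45.1, 39.8 and 40.2 CPM with JQ1, 49.7, 48.7 and 38.9 CPM with TRAP-1-NegB and 75.6, 78.4 and 87.9 CPM with MS78, against 29.8, 25.2 and 26.6 CPM with DMSO. No treated library fell in the DMSO range, and the JQ1 and TRAP-1-NegB libraries all lay below those of TRAP1, TRAP-1-NegP and MS78. The rises were 1.60 ± 0.13 (adjusted p = 1.3e-13) with TRAP-1-NegP, 1.56 ± 0.13 (adjusted p = 3.5e-12) with MS78, 1.40 ± 0.13 (adjusted p = 2.7e-12) with TRAP1, 0.75 ± 0.13 (adjusted p = 0.00041) with TRAP-1-NegB and 0.61 ± 0.13 (adjusted p = 0.00014) with JQ1. FDFT1, squalene synthase, averaged 419 ± 15.7 CPM with TRAP1, 388 ± 5.78 CPM with TRAP-1-NegP, 270.3 ± 9.29 CPM with MS78, 220.4 ± 1.91 CPM with TRAP-1-NegB and 209 ± 7.57 CPM with JQ1 at 4 h, against 176 ± 8.24 CPM with DMSO (SD, n = 3 each). Its rises were 1.25 ± 0.057 (adjusted p = 1.2e-25), 1.14, 0.62, 0.33 and 0.25 in the same order. SQLE, squalene epoxidase, a control point of the late pathway, averaged 115 ± 1.18 CPM with TRAP1, 143 ± 6.52 CPM with TRAP-1-NegP, 105 ± 3.36 CPM with JQ1, 76.3 ± 1.86 CPM with TRAP-1-NegB and 118 ± 4.31 CPM with MS78, against 48.1 ± 3.89 CPM with DMSO. It rose by 1.26, 1.57, 1.12, 0.66 and 1.29 in that order, with adjusted p-values from 1.1e-16 with TRAP-1-NegP to 4.8e-05 with TRAP-1-NegB. CYP51A1, lanosterol C14-demethylase, rose with MS78 by 1.04 ± 0.082 (adjusted p = 2.3e-14). With TRAP-1-NegP it rose by 0.78, with TRAP-1-NegB by 0.56, with TRAP1 by 0.40 and with JQ1 by 0.23; the JQ1 rise was 0.18 (adjusted p = 0.11) without JQ1 replicate 3 and was lost also without DMSO replicate 2 or 3, and that with TRAP1 was 0.13 (adjusted p = 0.23) on library totals. The annotation names 3 pseudogenes after CYP51A1.

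NSDHL, the sterol dehydrogenase of C4-demethylation, was called in opposite directions. It stood at 65.8, 62.2 and 69.0 CPM with TRAP1, 69.2, 70.7 and 73.4 CPM with TRAP-1-NegP and 44.0, 48.2 and 48.1 CPM with JQ1 at 4 h, against 56.5, 55.6 and 54.6 CPM with DMSO. All JQ1 libraries lay below the DMSO range and all TRAP-1-NegP and TRAP1 libraries above it. NSDHL fell with JQ1 by 0.25 ± 0.087 (adjusted p = 0.014), and rose with TRAP-1-NegP by 0.35 ± 0.086 (adjusted p = 0.00069), with MS78 by 0.29 ± 0.086 (adjusted p = 0.014) and with TRAP1 by 0.24 ± 0.086 (adjusted p = 0.018). The JQ1 fall was −0.21 (adjusted p = 0.082) without JQ1 replicate 1. On library totals the TRAP1 value of NSDHL was −0.031 (adjusted p = 0.80), below 0, and that of TRAP-1-NegP 0.18 (adjusted p = 0.090); the TRAP1 rise of NSDHL was also lost without TRAP1 replicate 3, at 0.20 (adjusted p = 0.081), and without DMSO replicate 2 or 3. DHCR7, which reduces 7-dehydrocholesterol to cholesterol, rose by 1.09 ± 0.084 (adjusted p = 4.6e-16) with TRAP-1-NegP, 0.66 with MS78, 0.61 with TRAP1 and 0.41 with TRAP-1-NegB, and stood at 0.19 (95% interval 0.021 to 0.36, adjusted p = 0.057) with JQ1. SC5D, the lathosterol oxidase just before it, rose by 0.92 with JQ1, 0.84 with TRAP-1-NegP, 0.67 with MS78 and 0.60 with TRAP1, and stood at 0.33 (95% interval 0.036 to 0.62, adjusted p = 0.42) with TRAP-1-NegB. On library totals its TRAP1 change was 0.33 (adjusted p = 0.068). LSS, which closes the sterol ring, rose by 0.45 with TRAP1, 0.63 with TRAP-1-NegP and 0.36 with JQ1, and was not called with TRAP-1-NegB (0.0012) or MS78 (0.15). Its TRAP1 change was 0.37 (adjusted p = 0.062) without DMSO replicate 1 and 0.19 (adjusted p = 0.30) on library totals. Its JQ1 change was 0.27 (adjusted p = 0.19) without JQ1 replicate 2, and it was also lost without JQ1 replicate 3 or DMSO replicate 1 or 3. EBP, the sterol isomerase, rose by 0.32 with TRAP1 and 0.29 with TRAP-1-NegP, but on library totals its values were 0.047 (adjusted p = 0.69) and 0.12 (adjusted p = 0.30), which did not pass. HSD17B7, a ketosteroid reductase, rose by 0.76 ± 0.19 (adjusted p = 0.0029) with MS78 and by 0.46 ± 0.19 (adjusted p = 0.043) with TRAP1. The TRAP1 value was 0.27 (adjusted p = 0.31) without TRAP1 replicate 1 and 0.32 (adjusted p = 0.24) without DMSO replicate 3.

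Among the 3 genes of sterol transport, 2 rose with TRAP1, TRAP-1-NegP, JQ1 and MS78 at 4 h and 1 fell with TRAP1. Of all genes, 22.2%, 18.6%, 24.3% and 6.23% were higher in that order, and 24.5% were lower with TRAP1. STARD4, a carrier of cholesterol between membranes, stood at 25.1, 24.8 and 34.1 CPM with TRAP1, 29.5, 35.6 and 30.8 CPM with TRAP-1-NegP, 26.5, 25.6 and 26.2 CPM with JQ1, 20.9, 19.8 and 22.4 CPM with TRAP-1-NegB and 30.8, 28.0 and 30.5 CPM with MS78, against 14.6, 13.9 and 14.1 CPM with DMSO. Every treated library lay above every DMSO library. STARD4 rose by 1.17 ± 0.16 (adjusted p = 1.8e-08) with TRAP-1-NegP, 1.07 ± 0.16 (adjusted p = 1.8e-06) with MS78, 0.98 ± 0.16 (adjusted p = 6.9e-07) with TRAP1 and 0.88 ± 0.16 (adjusted p = 4.9e-06) with JQ1, and stood at 0.57 (95% interval 0.25 to 0.89, adjusted p = 0.066) with TRAP-1-NegB. At 2 h the MS78 libraries held 7.89, 15.4 and 19.1 CPM, against 20.4, 20.5 and 19.0 CPM with DMSO; the low value is that of replicate 1, and without it the fall of 0.51 (adjusted p = 0.018) was −0.21 (adjusted p = 0.41). It was lost also without DMSO replicate 1 or 2. NPC1, which exports cholesterol from lysosomes, rose by 1.10 ± 0.084 (adjusted p = 1.4e-16) with JQ1, 1.01 with TRAP-1-NegP, 0.90 with TRAP1, 0.42 with MS78 and 0.32 with TRAP-1-NegB; the last value was 0.25 (adjusted p = 0.35) without DMSO replicate 2 and was lost without 5 of the 6 libraries. TMEM97, the sigma-2 receptor, a partner of NPC1, stood at 16.1, 27.1 and 26.6 CPM with TRAP1, 30.6, 32.2 and 29.5 CPM with TRAP-1-NegP and 24.0, 24.4 and 24.8 CPM with JQ1, against 32.0, 26.1 and 30.1 CPM with DMSO. The lowest TRAP1 value came from replicate 1, the library that stood apart, and the other TRAP1 libraries lay within the DMSO range; the JQ1 libraries lay below it. TMEM97 fell with TRAP1 by 0.34 ± 0.12 (adjusted p = 0.019), but its value was −0.13 (adjusted p = 0.40) without TRAP1 replicate 1 and −0.28 (adjusted p = 0.092) without DMSO replicate 1. With JQ1 it stood at −0.27 (95% interval −0.51 to −0.021, adjusted p = 0.067).

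Of the 5 members that build fatty acids, 3 were called at 4 h with some compounds and not with others. FASN, ACSS2 and ACLY rose with TRAP1, TRAP-1-NegP and JQ1 at 4 h, beside 22.2%, 18.6% and 24.3% of all genes called higher, and 0 of the 5 were called with TRAP-1-NegB or MS78 by edgeR, against 0.827% and 6.23% of all genes called higher. At an unadjusted p under 0.05, 2 and 1 of the 5 passed with TRAP-1-NegB and MS78. FASN, the synthase that makes palmitate, stood at 445, 475 and 497 CPM with TRAP1, 538, 554 and 539 CPM with TRAP-1-NegP and 387, 381 and 441 CPM with JQ1. The TRAP-1-NegB libraries held 291, 272 and 252 CPM and the MS78 libraries 252, 277 and 269 CPM, against 228, 228 and 257 CPM with DMSO. All libraries of the first 3 compounds lay at or above 381 CPM, and the TRAP-1-NegB and MS78 libraries overlapped the DMSO range. FASN rose by 1.19 ± 0.087 (adjusted p = 1.3e-13) with TRAP-1-NegP, 0.99 ± 0.087 (adjusted p = 6.6e-12) with TRAP1 and 0.76 ± 0.087 (adjusted p = 2.8e-09) with JQ1. It stood at 0.19 (95% interval 0.016 to 0.37, adjusted p = 0.44) with TRAP-1-NegB and 0.16 (95% interval −0.014 to 0.34, adjusted p = 0.22) with MS78. ACSS2, which makes acetyl-CoA from acetate, stood at 50.4, 55.8 and 59.3 CPM with TRAP1, 60.6, 49.1 and 60.7 CPM with TRAP-1-NegP, 46.9, 45.7 and 46.0 CPM with JQ1, 33.6, 36.6 and 35.1 CPM with TRAP-1-NegB and 37.6, 35.6 and 27.7 CPM with MS78, against 35.2, 32.6 and 31.9 CPM with DMSO. The first 3 groups lay above the DMSO range and the others overlapped it. ACSS2 rose by 0.77 ± 0.10 (adjusted p = 1.8e-08) with TRAP-1-NegP, 0.73 ± 0.10 (adjusted p = 3.8e-08) with TRAP1 and 0.48 ± 0.10 (adjusted p = 0.00012) with JQ1, and stood at 0.079 (95% interval −0.13 to 0.29, adjusted p = 0.88) with TRAP-1-NegB and 0.018 (95% interval −0.19 to 0.23, adjusted p = 0.94) with MS78. ACLY, which makes acetyl-CoA from citrate, rose by 0.74 with TRAP-1-NegP, 0.61 with JQ1 and 0.52 with TRAP1. It stood at 0.13 (95% interval 0.0040 to 0.26, adjusted p = 0.49) with TRAP-1-NegB and 0.16 (95% interval 0.029 to 0.28, adjusted p = 0.085) with MS78; the DESeq2 Wald test called the MS78 value, at 0.17 (adjusted p = 0.020).

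ACACA, the acetyl-CoA carboxylase that commits carbon to fatty acids, did not follow its neighbours. It stood at 80.6, 71.5 and 73.4 CPM with TRAP1, 71.8, 90.8 and 83.0 CPM with TRAP-1-NegP, 87.2, 92.4 and 81.0 CPM with JQ1, 79.9, 73.9 and 70.9 CPM with TRAP-1-NegB and 78.4, 75.5 and 72.7 CPM with MS78 at 4 h, against 80.6, 70.6 and 80.5 CPM with DMSO. Only the JQ1 libraries lay above the DMSO range. Its change was −0.040 (95% interval −0.21 to 0.13, adjusted p = 0.73) with TRAP1, 0.085 with TRAP-1-NegP and 0.17 (95% interval 0.0018 to 0.34, adjusted p = 0.090) with JQ1. On library totals the TRAP1 value of ACACA was −0.31 (adjusted p = 0.0020). At 2 h ACACA rose with JQ1 by 0.22 ± 0.083 (adjusted p = 0.036), which was 0.19 (adjusted p = 0.15) without JQ1 replicate 2 and was lost also without JQ1 replicate 1 or DMSO replicate 2 or 3. ME1, malic enzyme, a source of NADPH for the synthase, was not called in any of the 10 comparisons with DMSO, with 4 h values from −0.016 with TRAP-1-NegP to 0.27 with MS78.

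Of the 6 members that modify or activate fatty acids, SCD responded in every group at 4 h. SCD, the desaturase that makes oleate, stood at 491, 491 and 459 CPM with TRAP1, 561, 562 and 585 CPM with TRAP-1-NegP, 338, 342 and 328 CPM with JQ1, 305, 325 and 309 CPM with TRAP-1-NegB and 441, 435 and 444 CPM with MS78, against 249, 225 and 232 CPM with DMSO. Every treated library lay above every DMSO library, and the JQ1 and TRAP-1-NegB libraries lay below those of the other 3 compounds. SCD rose by 1.27 ± 0.052 (adjusted p = 1.4e-27) with TRAP-1-NegP, 1.03 ± 0.051 (adjusted p = 6.1e-24) with TRAP1, 0.90 ± 0.051 (adjusted p = 3.9e-20) with MS78, 0.51 ± 0.051 (adjusted p = 1.6e-12) with JQ1 and 0.41 ± 0.051 (adjusted p = 1.0e-07) with TRAP-1-NegB. ELOVL6, which lengthens palmitate to stearate, fell with 3 of the 5 compounds. It stood at 18.9, 14.1 and 15.7 CPM with TRAP1, 14.4, 15.6 and 15.0 CPM with TRAP-1-NegP, 18.2, 26.3 and 18.7 CPM with JQ1, 23.9, 24.7 and 23.3 CPM with TRAP-1-NegB and 31.1, 26.5 and 30.6 CPM with MS78, against 30.7, 24.1 and 24.5 CPM with DMSO. The TRAP1 and TRAP-1-NegP libraries lay below every DMSO library, and the JQ1, TRAP-1-NegB and MS78 libraries overlapped them. ELOVL6 changed by −0.82 ± 0.13 (adjusted p = 1.5e-06) with TRAP-1-NegP, −0.70 ± 0.13 (adjusted p = 1.3e-05) with TRAP1 and −0.33 ± 0.13 (adjusted p = 0.033) with JQ1; the JQ1 call was lost without DMSO replicate 1, at −0.20 (adjusted p = 0.27), and without JQ1 replicate 1 or 3, at −0.23 (adjusted p = 0.20) and −0.25 (adjusted p = 0.17). With MS78 it stood at 0.15 (95% interval −0.11 to 0.41, adjusted p = 0.49). At 2 h ELOVL6 was higher with TRAP1, at 36.8, 34.3 and 41.0 CPM against 28.6, 30.7 and 30.1 CPM with DMSO (0.33 ± 0.13 (adjusted p = 0.045)), a call that was lost with any 1 of 5 libraries left out, as at 0.31 (adjusted p = 0.12) without DMSO replicate 1.

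ACSL3, which activates long-chain fatty acids at lipid droplets, stood at 153, 159 and 152 CPM with TRAP1, 158, 154 and 152 CPM with TRAP-1-NegP, 167, 181 and 174 CPM with JQ1, 107, 106 and 117 CPM with TRAP-1-NegB and 124, 142 and 124 CPM with MS78 at 4 h, against 111, 90.5 and 98.3 CPM with DMSO. The TRAP-1-NegB libraries overlapped the DMSO range and those of the other 4 compounds lay above it. ACSL3 rose by 0.80 ± 0.070 (adjusted p = 1.8e-14) with JQ1, 0.63 ± 0.070 (adjusted p = 8.5e-11) with TRAP-1-NegP, 0.63 ± 0.070 (adjusted p = 4.9e-11) with TRAP1 and 0.38 ± 0.070 (adjusted p = 9.0e-05) with MS78, and stood at 0.14 (95% interval −0.0014 to 0.28, adjusted p = 0.51) with TRAP-1-NegB. ELOVL5, which lengthens polyunsaturated fatty acids, rose by 0.58 with JQ1, 0.44 with TRAP-1-NegP, 0.31 with TRAP1 and 0.22 with MS78. The TRAP1 value was 0.041 (adjusted p = 0.70) on library totals, and the MS78 value was 0.18 (adjusted p = 0.19) without MS78 replicate 1 and 0.12 (adjusted p = 0.37) with the length-scaled counts, and was lost also without MS78 replicate 2 or DMSO replicate 2 or 3. FADS1, the delta-5 desaturase of polyunsaturated fatty acids, rose with MS78 by 0.63 ± 0.10 (adjusted p = 8.6e-06), at 52.1, 50.4 and 48.9 CPM against 32.1, 34.3 and 31.5 CPM with DMSO, and was not called with the other 4. On library totals it fell with TRAP1, at −0.27 (adjusted p = 0.027), against 0.0054 ± 0.10 (adjusted p = 0.97) with TMM. FADS2, the delta-6 desaturase, lay at 0.763 ± 0.179 TPM with TRAP1 and 0.970 ± 0.562 TPM with DMSO at 4 h. At that depth its intervals were wide, −0.93 to 0.90 on the log2 scale with TRAP1, and a difference was not detectable. Exons of FADS1 and FADS2 overlap on opposite strands.

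The pair of genes of lipid use differed. LPIN1, the phosphatidate phosphatase on the way to triglycerides and a known SREBP target, was low, at 1.18 ± 0.348 TPM with DMSO at 4 h. It stood at 8.69, 11.5 and 9.6 CPM with TRAP1, 12.7, 12.8 and 12.3 CPM with TRAP-1-NegP, 11.4, 10.0 and 10.8 CPM with JQ1, 4.85, 3.88 and 4.29 CPM with TRAP-1-NegB and 7.36, 9.24 and 7.51 CPM with MS78, against 5.87, 3.77 and 3.66 CPM with DMSO. The TRAP-1-NegB libraries overlapped the DMSO range and the other 4 groups lay above it. LPIN1 rose by 1.5 ± 0.22 (adjusted p = 1.1e-07) with TRAP-1-NegP, 1.27 ± 0.22 (adjusted p = 2.2e-06) with JQ1, 1.16 ± 0.22 (adjusted p = 1.2e-05) with TRAP1 and 0.85 ± 0.22 (adjusted p = 0.0042) with MS78, and stood at −0.031 (95% interval −0.48 to 0.42, adjusted p = 0.99) with TRAP-1-NegB. At 2 h it was not called with any compound, with values from −0.19 with TRAP-1-NegB to 0.041 with JQ1. FABP5, a carrier of fatty acids in the cytosol, was the most abundant member, at 339.9 ± 24.0 TPM with DMSO at 4 h. It stood at 182, 178 and 168 CPM with TRAP1 at 2 h and 149.6, 165 and 148 CPM at 4 h, against 124, 128 and 113 CPM with DMSO at 2 h and 124, 121 and 112 CPM at 4 h. The TRAP1 and DMSO libraries did not overlap at either time. With TRAP1, FABP5 rose at 2 h by 0.53 ± 0.068 (adjusted p = 7.9e-09), and its rise at 4 h was 0.38 ± 0.069 (adjusted p = 6.1e-06). The 4 h value with TRAP1 was 0.11 (adjusted p = 0.19) on library totals. At 2 h FABP5 also rose with TRAP-1-NegP by 0.46, JQ1 by 0.32, MS78 by 0.29 and TRAP-1-NegB by 0.24. At 4 h it rose with JQ1 by 0.23 and was not called with TRAP-1-NegP (0.15), MS78 (0.096) or TRAP-1-NegB (−0.073). The annotation names 13 pseudogenes after FABP5.

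**Figure D3:**
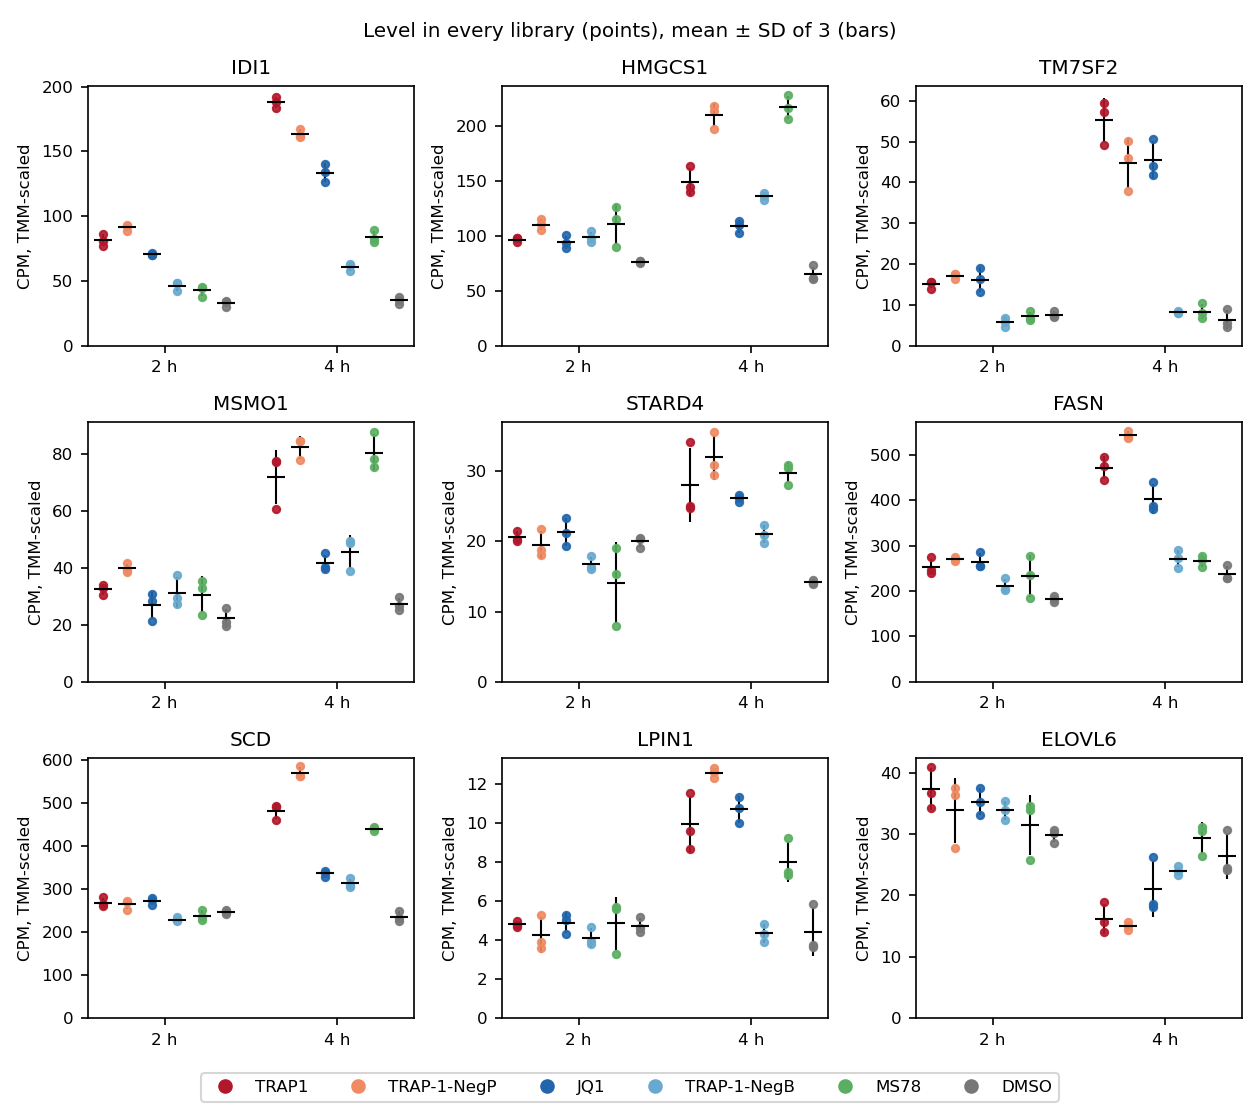
TMM-scaled CPM of 9 members in every library (points) with the mean and SD of 3 libraries (bars), at 2 h and 4 h, by compound with DMSO last. TM7SF2 separates TRAP1, TRAP-1-NegP and JQ1 at 4 h from TRAP-1-NegB, MS78 and DMSO, while HMGCS1 and SCD are higher than DMSO with all 5 compounds.

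Compounds were then set against each other at the matched dose of 3 µM and matched times, in 8 comparisons chosen from the labels' names and 2 chosen after values had been seen (TRAP1 against MS78, and MS78 against TRAP-1-NegB, at 4 h). P-values are adjusted over genes within a comparison, not over the comparisons. TRAP1 and TRAP-1-NegP did not differ in any member at 2 h by edgeR: 0 were higher and 0 lower, beside 0.527% and 0.274% of all genes, and 10 passed an unadjusted p under 0.05. The DESeq2 Wald test also called 0, and a fit of only these groups called 3. The interval of the difference was −0.32 to −0.015 for IDI1 and −0.52 to 0.14 for TM7SF2. At 4 h, 2 members were higher and 8 lower with TRAP1 than with TRAP-1-NegP, beside 7.25% and 8.09% of all genes; on library totals 0 were higher and 12 lower. Of all genes called, 22.0% were higher on totals, against 47.3% with TMM. The lower members were led by MVD, at −0.51 ± 0.11 (adjusted p = 0.00040), HMGCS1, at −0.49 ± 0.078 (adjusted p = 3.8e-06), and DHCR7, at −0.48 ± 0.083 (adjusted p = 1.5e-05). ACAT2 was higher by 0.25 ± 0.089 (adjusted p = 0.043) and FABP5 by 0.22 ± 0.068 (adjusted p = 0.018), calls that were lost on totals. Without TRAP1 replicate 2 or TRAP-1-NegP replicate 3 neither was called. The ACAT2 difference was 0.23 (adjusted p = 0.13) without TRAP-1-NegP replicate 1 and 0.18 (adjusted p = 0.27) without TRAP1 replicate 1. TM7SF2 stood at 0.31 (95% interval −0.0011 to 0.62, adjusted p = 0.18) and FASN at −0.20 (95% interval −0.38 to −0.029, adjusted p = 0.11) between these compounds.

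Against JQ1 at 2 h, TRAP1 libraries were higher in 0 members and lower in 1, beside 1.1% and 0.887% of all genes. The lower member was ACLY, at −0.29 ± 0.063 (adjusted p = 0.0037); DESeq2 called 5 members and library totals 3. At 4 h, 14 were higher and 3 lower with TRAP1 than with JQ1, beside 12.5% and 14.9% of all genes. With 1 library left out, 12 to 14 were higher and 2 to 5 lower, with 5 without JQ1 replicate 3 and 2 without JQ1 replicate 2 or TRAP1 replicate 2 or 3; on totals 10 were higher and 8 lower (21.1% of all genes called were higher on totals, 45.6% with TMM). Sterol genes led: FDFT1 was higher by 1.00 ± 0.057 (adjusted p = 7.2e-21), MSMO1 by 0.79 ± 0.13 (adjusted p = 6.3e-06) and MVK by 0.71 ± 0.13 (adjusted p = 3.4e-05). LBR was lower, at −0.57 ± 0.14 (adjusted p = 0.0016), with ELOVL6 at −0.38 ± 0.13 (adjusted p = 0.030) and ELOVL5 at −0.27 ± 0.074 (adjusted p = 0.0049). The ELOVL6 difference was −0.18 (adjusted p = 0.41) without JQ1 replicate 2 and −0.27 (adjusted p = 0.20) without TRAP1 replicate 2. TM7SF2 stood at 0.28 (95% interval −0.028 to 0.59, adjusted p = 0.18), SQLE at 0.14 (95% interval −0.067 to 0.34, adjusted p = 0.35) and NPC1 at −0.20 (95% interval −0.36 to −0.034, adjusted p = 0.064). JQ1 was then set against TRAP-1-NegP. At 2 h, 5 members were higher and 8 lower with JQ1, beside 5.65% and 7.26% of all genes; on totals these were 5 and 4, and of all genes called 62.6% were higher on totals, against 43.8% with TMM. With 1 library left out, 3 to 5 were higher and 2 to 6 lower; without JQ1 replicate 2 the lower ones numbered 2, and without TRAP-1-NegP replicate 1, 2 or 3 they numbered 5. The higher ones numbered 3 without JQ1 replicate 1 or TRAP-1-NegP replicate 1. The higher members were led by ACLY, at 0.38 ± 0.063 (adjusted p = 2.9e-05), ACACA, at 0.35 ± 0.084 (adjusted p = 0.0024), and ELOVL5, at 0.33 ± 0.074 (adjusted p = 0.0014), and the others were FADS1 and the sterol transporter NPC1. The lower ones were led by MSMO1, at −0.57 ± 0.13 (adjusted p = 0.0029), MVD, at −0.41 ± 0.11 (adjusted p = 0.0094), and IDI1, at −0.37 ± 0.076 (adjusted p = 0.00053), and all 8 were enzymes of the mevalonate arm or of the steps from squalene to cholesterol. The MVD difference was −0.34 (adjusted p = 0.088) without JQ1 replicate 2. At 4 h, 1 was higher and 17 lower with JQ1 than with TRAP-1-NegP, beside 12.9% and 12.9% of all genes. The lower members were led by MVK, at −1.01 ± 0.13 (adjusted p = 9.6e-08), MSMO1, at −0.98 ± 0.13 (adjusted p = 2.4e-07), and HMGCS1, at −0.95 ± 0.079 (adjusted p = 1.3e-13); the higher one was ELOVL6, at 0.49 ± 0.14 (adjusted p = 0.0053), which was 0.29 (adjusted p = 0.15) without JQ1 replicate 2. TM7SF2 stood at 0.027 (95% interval −0.28 to 0.34, adjusted p = 0.93).

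TRAP1 and TRAP-1-NegB differed from 2 h on. At 2 h, 9 members were higher and 0 lower with TRAP1, beside 11.6% and 9.13% of all genes (3 and 0 on library totals, where 22.7% of all genes called were higher, against 56.0% with TMM). They were led by TM7SF2, at 1.38 ± 0.18 (adjusted p = 1.2e-08), IDI1, at 0.82 ± 0.078 (adjusted p = 1.8e-12), and FDFT1, at 0.42 ± 0.057 (adjusted p = 7.6e-08). At 4 h, 20 were higher and 4 lower, beside 22% and 24.2% of all genes (14 and 7 on totals, where 24.2% of all genes called were higher, against 47.7% with TMM). TM7SF2 was higher by 2.75 ± 0.17 (adjusted p = 5.6e-20), IDI1 by 1.63 ± 0.077 (adjusted p = 6.8e-25) and LPIN1 by 1.19 ± 0.22 (adjusted p = 7.4e-06). FASN was higher by 0.80 ± 0.086 (adjusted p = 1.1e-09) and ACSS2 by 0.65 ± 0.10 (adjusted p = 4.8e-07), and these 5 were called on totals as well. LBR was lower, at −0.61 ± 0.14 (adjusted p = 0.00031), with ELOVL6 at −0.56 ± 0.13 (adjusted p = 0.00037) and TMEM97 at −0.43 ± 0.12 (adjusted p = 0.0029); the TMEM97 difference was −0.22 (adjusted p = 0.12) without TRAP1 replicate 1. HMGCS1 stood at 0.13 (95% interval −0.023 to 0.29, adjusted p = 0.16) and CYP51A1 at −0.17 (95% interval −0.33 to −0.0020, adjusted p = 0.092).

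With TRAP1 at 4 h, 14 members were higher and 6 lower than with MS78, beside 23.9% and 25.4% of all genes. On totals 5 were higher and 20 lower, and of all genes called 20.3% were higher, against 48.6% with TMM. The 5 members higher on both scales were IDI1, FDFT1, TM7SF2, ACSS2 and FASN, with TMM differences of 1.16 ± 0.076 (adjusted p = 2.9e-19), 0.63 ± 0.056 (adjusted p = 3.3e-14), 2.73 ± 0.17 (adjusted p = 6.7e-20), 0.71 ± 0.10 (adjusted p = 5.8e-08) and 0.83 ± 0.086 (adjusted p = 4.0e-10). ELOVL6, at −0.86 ± 0.13 (adjusted p = 2.3e-07), LBR, at −0.81 ± 0.14 (adjusted p = 4.2e-06), and CYP51A1, at −0.64 ± 0.081 (adjusted p = 2.1e-09), were lower with TRAP1 than with MS78. HMGCS1 was lower too, at −0.54 ± 0.078 (adjusted p = 4.8e-08), and SQLE stood at −0.032 (95% interval −0.24 to 0.17, adjusted p = 0.82). MS78 went beyond TRAP-1-NegB at 4 h. With MS78, 12 members were higher and 1 lower, beside 2.01% and 6.92% of all genes; of all genes called 71.1% were higher on totals, against 22.5% with TMM. Without TRAP-1-NegB replicate 2 the count was 8. LPIN1 was higher by 0.89 ± 0.22 (adjusted p = 0.0050), MSMO1 by 0.82 ± 0.13 (adjusted p = 1.5e-05) and HMGCS1 by 0.67 ± 0.078 (adjusted p = 2.9e-08), and PMVK was lower, at −0.53 ± 0.15 (adjusted p = 0.019). The PMVK difference was −0.38 (adjusted p = 0.21) without MS78 replicate 1. TM7SF2 stood at 0.026 (95% interval −0.33 to 0.38, adjusted p = 0.96) and FASN at −0.030 (95% interval −0.20 to 0.15, adjusted p = 0.90).

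**Figure D4:**
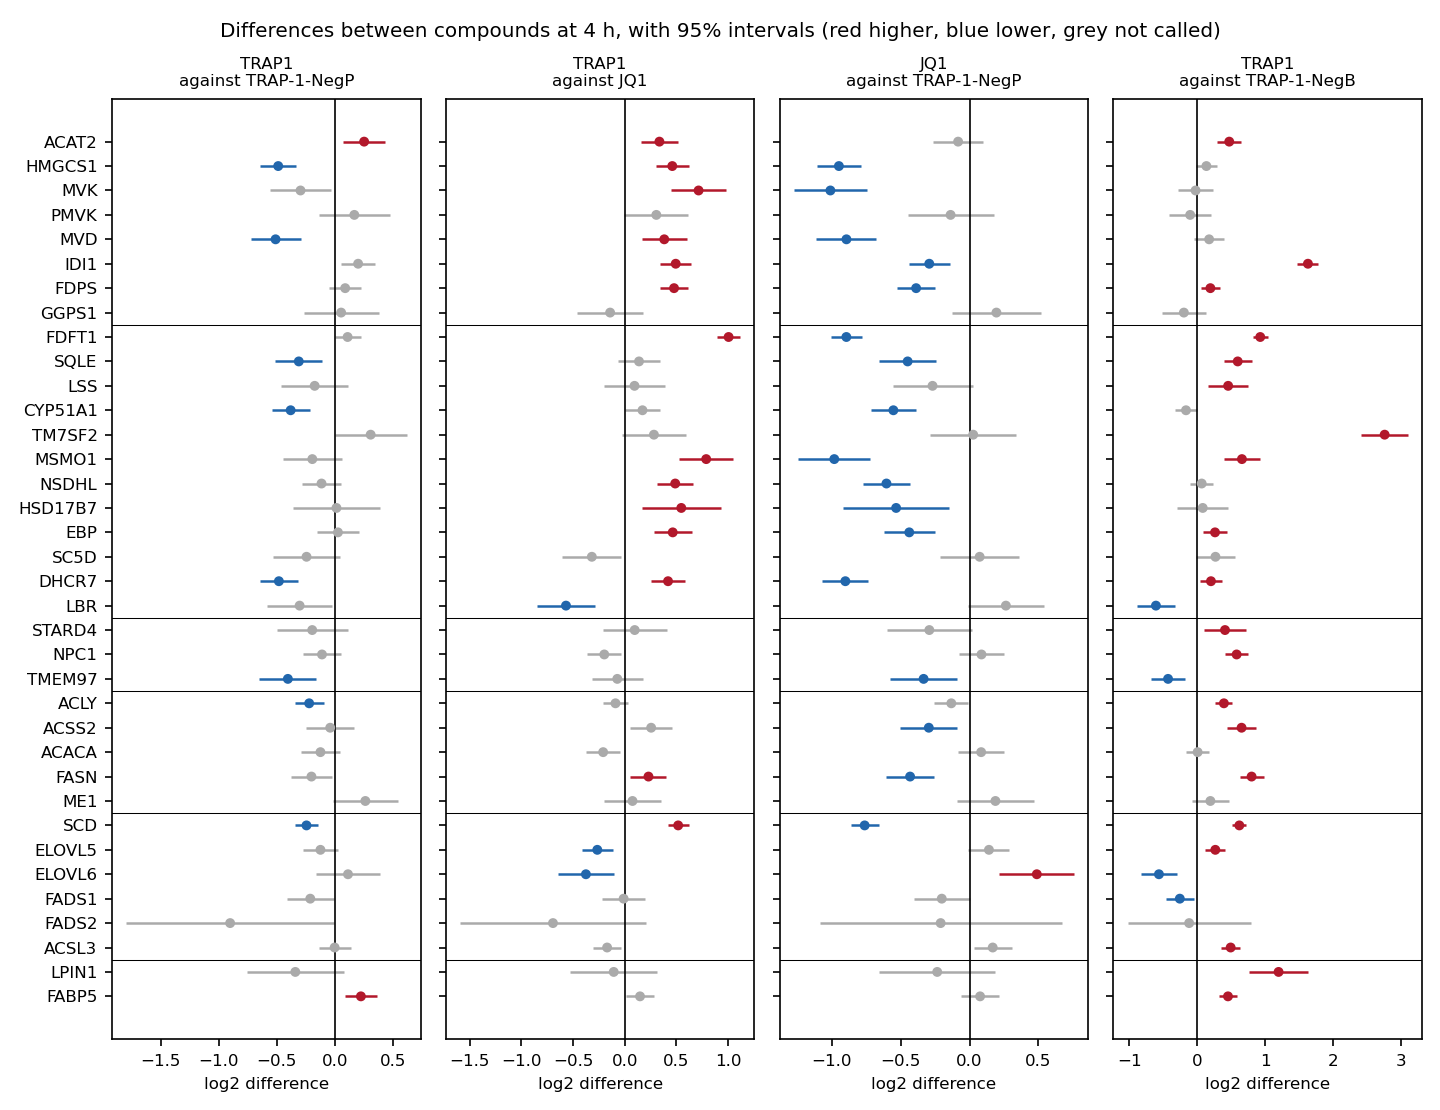
log2 difference of each member (rows, grouped by role) between compounds at 4 h, first-named minus second-named, with 95% intervals; red points are higher, blue lower and grey not called, and the axis ranges differ between panels. FDFT1, MSMO1 and MVK are higher with TRAP1 than with JQ1, TM7SF2 is grey in the first 3 panels, and it is 2.75 higher with TRAP1 than with TRAP-1-NegB.

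The DMSO libraries themselves differed between times. At 4 h against 2 h, 8 members were higher and 5 lower, beside 11.4% and 9.45% of all genes (34.7% of all genes called were higher on library totals, against 54.6% with TMM). NSDHL was higher by 0.50 ± 0.087 (adjusted p = 1.7e-05), MVD by 0.46 ± 0.11 (adjusted p = 0.0016) and ACSS2 by 0.44 ± 0.11 (adjusted p = 0.0015). STARD4 was lower, at −0.49 ± 0.16 (adjusted p = 0.019), with CYP51A1 at −0.37 ± 0.083 (adjusted p = 0.00064) and NPC1 at −0.32 ± 0.084 (adjusted p = 0.0036); the STARD4 call was lost without any of 4 libraries, as at −0.50 (adjusted p = 0.062) without DMSO replicate 2 of 4 h. Effects of the compounds were compared through the difference between the change at 4 h and the change at 2 h. By an adjusted p under 0.05, this difference was called above 0 in 17 members and below 0 in 2 for TRAP1, beside 10.2% and 11.8% of all genes. For TRAP-1-NegP it was called above 0 in 21 and below in 2, beside 11% and 12.2%. For JQ1 these calls numbered 13 and 4, beside 13.2% and 12.8%. TM7SF2 gained 2.13 ± 0.24 (adjusted p = 1.3e-09) with TRAP1, 1.76 ± 0.24 (adjusted p = 1.2e-07) with JQ1 and 1.64 ± 0.24 (adjusted p = 8.2e-07) with TRAP-1-NegP. SCD, whose TRAP1 change was 0.12 (95% interval 0.022 to 0.23, adjusted p = 0.059) at 2 h, gained 0.90 ± 0.072 (adjusted p = 3.0e-14) with TRAP1, 1.17 ± 0.072 (adjusted p = 1.7e-18) with TRAP-1-NegP and 0.37 ± 0.072 (adjusted p = 7.0e-05) with JQ1. LPIN1 gained 1.65 ± 0.31 (adjusted p = 6.0e-05) with TRAP-1-NegP, 1.23 ± 0.31 (adjusted p = 0.0019) with JQ1 and 1.14 ± 0.31 (adjusted p = 0.0050) with TRAP1. The ELOVL6 change fell by 1.03 ± 0.18 (adjusted p = 2.5e-05) with TRAP1, 1.00 ± 0.19 (adjusted p = 4.1e-05) with TRAP-1-NegP and 0.57 ± 0.18 (adjusted p = 0.014) with JQ1; the JQ1 difference was −0.46 (adjusted p = 0.073) without DMSO replicate 1 of 4 h. Of the 14 members that rose with TRAP1 at 2 h, 12 rose at 4 h as well, 85.7% of the 2 h list and 44.4% of the 4 h list. With TRAP-1-NegP 12 rose at both times (85.7% and 50%), with JQ1 12 (85.7% and 60%), with TRAP-1-NegB 3 (50% and 33.3%) and with MS78 5 (71.4% and 23.8%). Over all genes the shares that rose at both times were 70.6% of the 2 h list and 50.1% of the 4 h list with TRAP1, 49.9% and 44.2% with TRAP-1-NegP, 71.6% and 43.8% with JQ1, 10.8% and 66.1% with TRAP-1-NegB, and 17.4% and 23.1% with MS78.

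**Figure D5:**
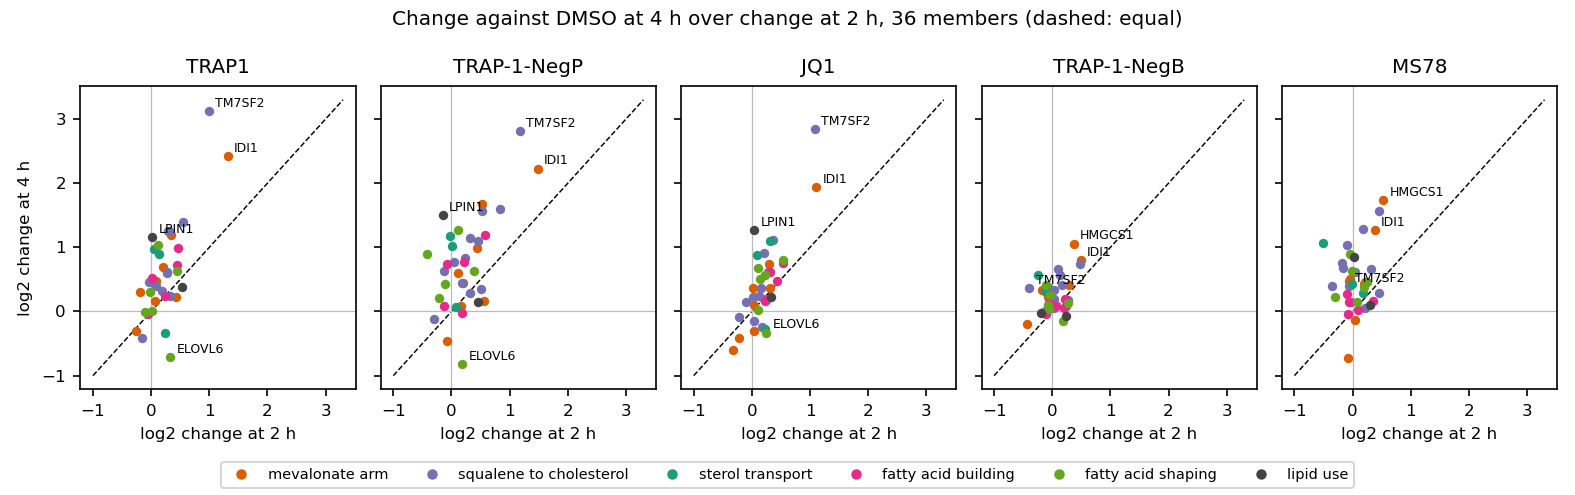
log2 change of each of the 36 members against DMSO at 4 h (vertical axis) over the change at 2 h (horizontal axis), 1 panel per compound, coloured by role, with a dashed line of equality. TM7SF2 and IDI1 lie above the line with TRAP1, TRAP-1-NegP and JQ1, and ELOVL6 lies below it with these 3 compounds.

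Other genes of lipid metabolism were counted in 4 lists, to be read beside the shares of all genes called higher and lower at 4 h, which were 22.2% and 24.5% with TRAP1, 18.6% and 18.9% with TRAP-1-NegP, 24.3% and 24.6% with JQ1, 0.827% and 0.2% with TRAP-1-NegB, and 6.23% and 9.05% with MS78. Not every call of a named gene is given, so a compound not mentioned beside a gene may also have moved it. Of 14 sterol regulators, 4 rose and 3 fell with TRAP1 at 4 h, 5 and 3 with TRAP-1-NegP, 4 and 3 with JQ1, 1 and 1 with TRAP-1-NegB, and 2 and 3 with MS78. With TRAP1 and JQ1 these counts lay near the shares of all genes. Median changes were 0.099 with TRAP1, 0.19 with TRAP-1-NegP and −0.041 with JQ1. INSIG1, the SREBP target that holds SCAP back in the endoplasmic reticulum, rose with all 5: by 3.91 ± 0.081 (adjusted p = 2.8e-41) with TRAP-1-NegP, 3.40 with TRAP1, 2.54 with MS78, 2.27 with JQ1 and 1.72 with TRAP-1-NegB. MYLIP and ABCA1, both LXR targets, did not move together. MYLIP, a ubiquitin ligase for lipoprotein receptors, rose by 2.31 ± 0.15 (adjusted p = 8.1e-19) with JQ1, 1.53 with TRAP1 and 1.18 with TRAP-1-NegP, and fell by 0.83 (adjusted p = 0.00026) with MS78. ABCA1, the cholesterol exporter, fell by 0.90 (adjusted p = 7.7e-05) with TRAP-1-NegP, 0.83 with MS78 (adjusted p = 0.00093) and 0.73 with TRAP-1-NegB (adjusted p = 0.028; −0.64 at an adjusted p = 0.23 without DMSO replicate 2, and lost also without DMSO replicate 1 or TRAP-1-NegB replicate 2 or 3), and stood at −0.084 (adjusted p = 0.74) with TRAP1 and −0.031 (adjusted p = 0.91) with JQ1. NPC2, the lysosomal partner of NPC1, rose by 0.75 ± 0.061 (adjusted p = 2.0e-15) with TRAP1 and 0.35 ± 0.061 (adjusted p = 4.4e-06) with TRAP-1-NegP, and SOAT1, which esterifies cholesterol, by 0.81 ± 0.11 (adjusted p = 2.0e-08) with JQ1. NPC2 was also called higher with JQ1 and SOAT1 with TRAP1. Both calls were lost on library totals, at 0.11 (adjusted p = 0.11) and 0.032 (adjusted p = 0.85). The SOAT1 call was lost also without DMSO replicate 2 or 3 or TRAP1 replicate 2. SREBF2, the gene of SREBP-2, rose by 0.26 ± 0.081 (adjusted p = 0.024) with MS78, a call lost without DMSO replicate 2 or any MS78 library, as at 0.25 (adjusted p = 0.062) without MS78 replicate 3. It was called higher with TRAP-1-NegP as well, where its value was 0.10 (adjusted p = 0.31) on library totals. INSIG2, the other INSIG gene, fell by 1.02 ± 0.18 (adjusted p = 2.3e-06) with TRAP1, 0.91 ± 0.18 (adjusted p = 1.5e-05) with JQ1 and 0.59 ± 0.17 (adjusted p = 0.0052) with TRAP-1-NegP, where it was −0.46 (adjusted p = 0.060) without TRAP-1-NegP replicate 1. MBTPS1, which makes the first SREBP cut, fell by 0.37, 0.27 and 0.27 in these 3 groups in that order, NR1H2, the LXR-beta gene, fell by 0.67 ± 0.10 (adjusted p = 1.2e-07) with JQ1 and 0.54 ± 0.10 (adjusted p = 1.1e-05) with TRAP1, and SCAP fell by 0.24 ± 0.086 (adjusted p = 0.047) with MS78, a call lost with any of the 6 libraries left out, as at −0.17 (adjusted p = 0.30) without DMSO replicate 3.

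Of 14 genes that use mevalonate products outside sterols, 1 rose and 5 fell with TRAP1 at 4 h, 1 and 2 with TRAP-1-NegP, and 1 and 6 with JQ1; 0 were called with TRAP-1-NegB or MS78 by edgeR (2 and 2 at an unadjusted p under 0.05, and 0 and 1 by DESeq2). The median change was −0.17 with TRAP1, −0.083 with TRAP-1-NegP and −0.18 with JQ1, beside 24.5%, 18.9% and 24.6% of all genes lower. RABGGTB, a subunit of the enzyme that prenylates Rab proteins, rose by 1.12 ± 0.10 (adjusted p = 6.4e-14) with TRAP1, 1.12 ± 0.10 (adjusted p = 6.1e-14) with JQ1 and 0.46 ± 0.10 (adjusted p = 0.00021) with TRAP-1-NegP. Its partner RABGGTA fell by 0.83 ± 0.14 (adjusted p = 1.7e-06) with JQ1 and 0.47 ± 0.14 (adjusted p = 0.0060) with TRAP-1-NegP, the last being −0.35 (adjusted p = 0.077) without DMSO replicate 3. FNTB, the beta subunit of farnesyltransferase, was called lower with TRAP1, at −2.83 ± 0.55 (adjusted p = 0.00012), and with TRAP-1-NegP, at −2.12 ± 0.52 (adjusted p = 0.0019). It shares exons with the read-through gene CHURC1-FNTB, listed separately, so the split of reads between them and with it the value is uncertain; with only TRAP1 and DMSO libraries of 4 h fitted it was −2.81 (adjusted p = 0.12). PGGT1B, a subunit of a protein prenylating enzyme, fell by 0.74 ± 0.18 (adjusted p = 0.00074) with TRAP1 and 0.59 ± 0.18 (adjusted p = 0.0062) with JQ1. The protease gene RCE1 fell by 0.41 ± 0.12 (adjusted p = 0.0037) with JQ1. It was called lower with TRAP1 as well, where it was −0.26 (adjusted p = 0.11) without DMSO replicate 2. That call was lost also without TRAP1 replicate 1 or 2.

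Of 12 further fatty acid synthesis genes, 8 rose and 1 fell with TRAP1, 7 and 2 with TRAP-1-NegP, 5 and 3 with JQ1, and 2 and 2 with MS78, with median changes of 0.43, 0.39, 0.26 and −0.031 in that order. With TRAP-1-NegB 0 were called by edgeR, and 3 passed an unadjusted p under 0.05; DESeq2 called ACSL1, at 0.47 (adjusted p = 0.036), and edgeR without the count filter called ACSL4, at 0.33 (adjusted p = 0.0060). SLC25A1, which carries citrate out of mitochondria, rose by 0.97 ± 0.092 (adjusted p = 7.7e-13) with TRAP-1-NegP and 0.70 ± 0.092 (adjusted p = 5.8e-09) with TRAP1. The elongase gene ELOVL7 rose by 2.15 with JQ1, 1.63 with TRAP-1-NegP and 1.57 with TRAP1. ACSL1, a fatty acid activating enzyme, rose by 1.28 with JQ1, 0.89 with TRAP1, 0.88 with TRAP-1-NegP and 0.82 with MS78, and its relative ACSL4 by 0.84 with JQ1 and 0.46 with MS78. ACSL4 was also called higher with TRAP1 and TRAP-1-NegP. Those calls were lost on library totals, at 0.16 (adjusted p = 0.36) and 0.21 (adjusted p = 0.24). The TRAP-1-NegP call was lost also without DMSO replicate 2 or TRAP-1-NegP replicate 3. MCAT, of mitochondrial fatty acid synthesis, fell by 0.97 with JQ1, 0.88 with TRAP1, 0.62 with TRAP-1-NegP and 0.51 with MS78, the last being −0.42 (adjusted p = 0.099) without DMSO replicate 2 and lost also without DMSO replicate 3 or MS78 replicate 1. OXSM, of the same route, fell by 0.75 ± 0.23 (adjusted p = 0.0059) with JQ1 and 0.66 ± 0.23 (adjusted p = 0.020) with TRAP-1-NegP, where it was −0.41 (adjusted p = 0.21) without TRAP-1-NegP replicate 2 and was lost also without DMSO replicate 1. ELOVL1 fell by 0.18 ± 0.067 (adjusted p = 0.023) with JQ1 and 0.20 ± 0.067 (adjusted p = 0.036) with MS78, but its values were −0.10 (adjusted p = 0.23) and −0.091 (adjusted p = 0.42) without DMSO replicate 1, and both calls were also lost without replicate 2 of the compound's own libraries. With TRAP1, in contrast, ELOVL1 was called higher, and this call was lost on library totals, at 0.12 (adjusted p = 0.098). Fatty acid oxidation, the breakdown pathway, was counted as well. Of 12 genes of fatty acid oxidation, 9 rose with TRAP1, 8 with TRAP-1-NegP and 5 with JQ1 at 4 h, beside 22.2%, 18.6% and 24.3% of all genes, and 0 fell with any of the 3; with TRAP-1-NegB 0 were called (1 at an unadjusted p under 0.05, and 0 by DESeq2), and with MS78 1 fell. The median change was 0.39 with TRAP1, 0.26 with TRAP-1-NegP and 0.22 with JQ1. HADHB, of the trifunctional protein, rose by 0.71 ± 0.071 (adjusted p = 2.4e-12) with TRAP1, 0.49 with TRAP-1-NegP and 0.44 with JQ1. CPT1A, which brings fatty acids into mitochondria, rose by 0.41 ± 0.060 (adjusted p = 7.1e-08) with JQ1 and 0.30 ± 0.060 (adjusted p = 5.3e-05) with TRAP-1-NegP, where it was 0.12 (adjusted p = 0.083) on library totals. With TRAP1 it was called higher too, and its value there was 0.042 (adjusted p = 0.58) on totals. ACADVL, the very-long-chain dehydrogenase, rose by 0.47 ± 0.070 (adjusted p = 1.2e-07) with TRAP1, and the isomerase gene ECI1 fell by 0.49 ± 0.10 (adjusted p = 0.00033) with MS78. With TRAP-1-NegP both ACADVL and ECI1 were called higher. These calls were lost on library totals, at 0.050 (adjusted p = 0.58) and 0.084 (adjusted p = 0.52), and without DMSO replicate 1. The ECI1 call was lost also without TRAP-1-NegP replicate 1, 2 or 3.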

How the data were processed

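RNA of BxPC-3 cells was sequenced in 36 libraries, 3 for each of 12 groups of compound and time, with paired reads of 150 bases. Per the submitters' processing notes the authors used nf-core/rnaseq 3.18.0 and Salmon 1.10.3 on build hg38; the annotation release and strand setting were not stated. Among their files, the deposited tables hold estimated counts per gene (not all whole numbers, not normalized), the same estimated counts scaled by transcript length, and TPM, as the authors' pipeline wrote them; Salmon shares reads of similar genes by estimation, so genes with close copies are less certain.

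Estimated counts were rounded. With 1 model over the 12 groups, edgeR 4.0.16 (R 4.3.3) filtered genes (filterByExpr, minimum count 10), scaled libraries by TMM and tested 24 comparisons by the quasi-likelihood test (two-sided, robust), with Benjamini-Hochberg adjustment over 14988 genes within each comparison, not over comparisons, and a threshold of 0.05. SE is the log2 change over the square root of F, and intervals are 95%. On simulated data with the depth and spread of these libraries and 14661 genes, TRAP1 was compared with DMSO at 4 h. The script recovered 81% of 100 genes changed by 3-fold and 43% of 100 changed by 1.5-fold. Only these genes were changed there, whereas 46.7% of all genes were called in the real comparison. The simulation therefore does not measure recovery in the real comparison, nor does it test the scaling. DESeq2 1.42.0, other scalings, filters and tables, the replicate block and leaving out libraries were alternatives. Library totals of 15288688 to 26608325 estimated counts set the precision.

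The members and the other lists were chosen with earlier results of these data known. Libraries were grouped by the labels' compound and time, and same-numbered libraries did not deviate together. Values per library are given, within each role, for the 2 members with the strongest rise (1 in groups under 4) and the 1 with the lowest change with TRAP1 at 4 h, and for members called in opposite directions with TRAP1, TRAP-1-NegP and JQ1. Between compounds the text names up to 3 called members per direction, with others chosen after their values were seen, and of each other list up to 3 called genes per direction at 4 h by adjusted p; 2 genes that this rule names are not reported here. Promoter sequences and gene positions are RefSeq's, GRCh38.p14, and figures were drawn with matplotlib 3.10.9.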

Additional observations from a re-analysis of the deposited data

Results flagged for a closer look

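For 59 results the effect of a compound against DMSO differed between 4 h and 2 h by edgeR's test of that difference, with an adjusted p under 0.05. Each value is the log2 change at 4 h minus that at 2 h, with 3 libraries in each of the 4 groups involved. The 3 compounds share their DMSO libraries.

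With TRAP1 the change was more positive at 4 h in 17 members, by ACAT2 0.49, HMGCS1 0.86, MVK 0.49, IDI1 1.11, FDFT1 0.95, SQLE 0.96, CYP51A1 0.31, TM7SF2 2.13, MSMO1 0.86, DHCR7 0.33, STARD4 0.93, NPC1 0.77, ACLY 0.51, FASN 0.52, SCD 0.90, ELOVL5 0.33 and LPIN1 1.14. It was more negative at 4 h in 2, by TMEM97 −0.57 and ELOVL6 −1.03.

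With TRAP-1-NegP the change was more positive at 4 h in 21 members, by HMGCS1 1.16, MVK 0.49, MVD 0.55, IDI1 0.75, FDFT1 0.82, SQLE 1.05, LSS 0.75, CYP51A1 0.74, TM7SF2 1.64, MSMO1 0.76, SC5D 0.60, DHCR7 0.63, STARD4 1.21, NPC1 1.00, ACLY 0.82, ACSS2 0.56, FASN 0.62, SCD 1.17, ELOVL5 0.54, FADS1 0.44 and LPIN1 1.65. It was more negative at 4 h in 2, by ELOVL6 −1.0 and FABP5 −0.30.

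With JQ1 the change was more positive at 4 h in 13 members, by ACAT2 0.35, HMGCS1 0.44, IDI1 0.83, SQLE 0.76, TM7SF2 1.76, SC5D 0.70, STARD4 0.79, NPC1 0.79, ACLY 0.31, SCD 0.37, ELOVL5 0.35, ACSL3 0.26 and LPIN1 1.23. It was more negative at 4 h in 4, by FDPS −0.34, NSDHL −0.43, TMEM97 −0.49 and ELOVL6 −0.57.

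The ELOVL6 difference with JQ1 was −0.46 (adjusted p = 0.073) without DMSO replicate 1 of 4 h, and the TMEM97 difference with TRAP1 was −0.35 (adjusted p = 0.10) without TRAP1 replicate 1 of 4 h, the library that stood apart. What sets these differences was not tested.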

How the results depend on the processing

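Of the 864 member results (36 members in 24 comparisons), 856 of 864 kept direction and side of the threshold with DESeq2's size factors, 828 of 853 with the DESeq2 Wald test (results without an adjusted p left out), 830 of 864 without the count filter, 857 of 864 with a stricter one, 846 of 864 with the length-scaled counts, 809 of 864 without both libraries that stood apart, 793 of 864 with only the groups compared and 740 of 864 on library totals alone, an alternative chosen after seeing the data. With 1 library left out, 5467 of 5832 did, 325 missed the threshold, 40 newly passed it and 0 reversed. Of 2100 such results for 28 named genes of the other lists, an alternative set also added after seeing the data, 1994 kept both, and 1 reversed, ELOVL1 with TRAP-1-NegP at 4 h, at −0.16 on totals. Since same-numbered libraries did not deviate together (correlations of −0.0463 to 0.0644, and 19 of 36 libraries closest to their own number), the numbers were not taken to pair libraries; the fit with the replicate block kept 853 of 864 member results, and 9 missed the threshold and 2 newly passed it.

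On library totals alone, 14 values changed sign. With TRAP1 against DMSO at 4 h these were FDPS −0.10 (adjusted p = 0.19), NSDHL −0.031 (adjusted p = 0.80) and FADS1 −0.27 (adjusted p = 0.027). With TRAP1 against TRAP-1-NegB at 4 h they were FDPS −0.044 (adjusted p = 0.59), DHCR7 −0.036 (adjusted p = 0.75) and ACACA −0.23 (adjusted p = 0.021), and with TRAP1 against MS78 at 4 h ACAT2 −0.12 (adjusted p = 0.28), MVD −0.33 (adjusted p = 0.0070), FDPS −0.046 (adjusted p = 0.56), EBP −0.079 (adjusted p = 0.47), SCD −0.21 (adjusted p = 0.00049), ELOVL5 −0.25 (adjusted p = 0.0064), ACSL3 −0.090 (adjusted p = 0.31) and FABP5 −0.060 (adjusted p = 0.48).

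Counts of members called moved by over 1.5 times in these alternatives. On totals alone they were 9 with TRAP1 and 9 with JQ1 against DMSO at 2 h, and 3 with TRAP1 against JQ1 and 3 against TRAP-1-NegB at 2 h. With only the groups compared, they were 1 with MS78 against DMSO, 3 with TRAP1 against TRAP-1-NegP and 6 with TRAP1 against JQ1 at 2 h. TRAP1 against JQ1 at 2 h gave 5 by DESeq2 and 5 without both libraries that stood apart, which also gave 1 with TRAP1 against TRAP-1-NegP at 2 h. Omitting 1 library gave 3 to 5 calls with TRAP-1-NegB against DMSO at 2 h, 1 to 2 with TRAP1 against JQ1 at 2 h, 7 to 11 with JQ1 against TRAP-1-NegP at 2 h and 8 to 11 with MS78 against TRAP-1-NegB at 4 h; the cause was not tested.

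Counts over all genes moved likewise. TRAP-1-NegB against DMSO at 4 h gave 124 and 30 higher and lower as reported, 168 higher and 66 lower by DESeq2, 179 higher and 69 lower without the filter and 294 higher and 84 lower without both libraries that stood apart. TRAP1 against TRAP-1-NegP at 2 h gave 79 and 41, 149 higher and 101 lower by DESeq2, 139 higher and 104 lower without the filter, 217 higher and 246 lower without both libraries and 450 higher and 662 lower with only its groups. TRAP1 against JQ1 at 2 h gave 165 and 133, 286 higher and 267 lower by DESeq2, 385 higher and 308 lower without both libraries and 510 higher and 526 lower with only its groups. With only the groups compared, TRAP-1-NegB against DMSO at 2 h gave 1362 higher and 1333 lower (as reported 761 and 880), MS78 against DMSO at 2 h 141 higher and 178 lower (1244 and 1146), JQ1 against TRAP-1-NegP at 2 h 1695 higher and 1623 lower (847 and 1088) and MS78 against TRAP-1-NegB at 4 h 738 higher and 1490 lower (301 and 1037), the last also 856 higher and 1268 lower without both libraries. With 1 library left out, TRAP-1-NegB against DMSO at 4 h gave as few as 76 higher and 16 lower, without DMSO replicate 2, or 79 and 13 without DMSO replicate 3, or 79 and 14 without TRAP-1-NegB replicate 3. MS78 against DMSO at 4 h (934 and 1356 as reported) gave 690 higher and 749 lower without DMSO replicate 2, 652 and 700 without DMSO replicate 3, and 574 and 936 without MS78 replicate 1. TRAP1 against TRAP-1-NegP at 2 h gave as few as 48 and 6, without TRAP1 replicate 3, and fell over 1.5 times without any of its 6 libraries; TRAP1 against JQ1 at 2 h gave as few as 78 and 46, without JQ1 replicate 1, and fell so without any other library than JQ1 replicate 3. JQ1 against TRAP-1-NegP at 2 h gave as few as 548 and 583, without JQ1 replicate 2, and fell so also without JQ1 replicate 1 or TRAP-1-NegP replicate 1. MS78 against TRAP-1-NegB at 4 h gave as few as 118 and 607, without MS78 replicate 1, and fell so also without MS78 replicate 2 or TRAP-1-NegB replicate 2 or 3. Depth limits the members of low level, FADS2 and LPIN1.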

Other observations

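Summed levels show how much of the transcriptome each branch took up at 4 h, as the mean ± SD of 3 libraries per group, in TPM as deposited, which sets every library to the same sum. The 8 mevalonate genes together held 492 ± 19.8 TPM with TRAP1, 539 ± 2.70 with TRAP-1-NegP, 438 ± 8.82 with JQ1, 467 ± 11.3 with TRAP-1-NegB and 581 ± 17.2 with MS78, against 409 ± 9.83 TPM with DMSO. The 12 genes from squalene to cholesterol held 618 ± 8.19 TPM with TRAP1, 699 ± 3.31 with TRAP-1-NegP, 509 ± 9.56 with JQ1, 528 ± 8.21 with TRAP-1-NegB and 727 ± 13.8 with MS78, against 435 ± 13.5 TPM with DMSO. The 5 genes that build fatty acids held 149 ± 1.74 TPM with TRAP1, 184 ± 2.81 with TRAP-1-NegP, 172 ± 6.11 with JQ1, 129.7 ± 6.18 with TRAP-1-NegB and 148 ± 6.54 with MS78, against 121 ± 6.57 TPM with DMSO. TPM is not on the TMM scale of the calls above. In TPM the MS78 sums of these 5 genes, 142 to 155, lay above those of DMSO, 114 to 126. On the TMM scale 0 of the 5 were called with MS78. The 6 genes that modify or activate fatty acids held 199.9 ± 9.02 TPM with TRAP1, 249 ± 4.05 with TRAP-1-NegP, 228 ± 8.74 with JQ1, 193 ± 2.61 with TRAP-1-NegB and 272 ± 5.01 with MS78, against 170.1 ± 13.8 TPM with DMSO. The sums weight abundant genes most, FDPS in the first and SCD in the last, and were not tested.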
